A study of Mus musculus with 56 samples.

Results

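Fibronectin, periostin, the fibulins, tenascin C, the thrombospondins, Sparc and the TGFβ-induced protein were followed as a set of 10 genes through 56 RNA-sequencing samples of mouse mammary tumor cell lines. The members were named as a list, Fn1, Postn, Fbln1, Fbln2, Fbln5, Tnc, Thbs1, Thbs2, Sparc and Tgfbi, and all 10 were found among the 20314 genes of the expression table by matching its Entrez identifiers to symbols. The list was selected on measured values in part, namely the strong differences of Fbln2 and Postn between lines in the presence of TGFβ, so the TGFβ values of these 2 genes and the differences between lines in TGFβ-treated cells are given below as descriptions, without a test. All 10 members passed the filter on low values (at least 1 CPM in at least 2 samples) that left 13754 genes for testing. Fbln1 and Thbs2 passed it through few samples, with 8 and 2 samples at 1 CPM or more. All 8 Fbln1 samples were of dm/fl or D164A/fl cells, and the 2 Thbs2 samples were of ΔC/fl cells. Fbln1 was thus tested only through the lines where it is high, so its calls are not independent evidence.

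The cell lines came from mammary tumors of MMTV-PyMT mice on the FVB/N background, in which the mouse mammary tumor virus promoter drives the polyoma middle T oncogene in mammary epithelium, and every line carries this transgene. They differ in their alleles of β-catenin (Ctnnb1), the adhesion protein and transcriptional co-activator of Wnt signaling. The 7 lines were fl/fl, with floxed alleles that act as wild type, D164A/fl, ΔC/fl and dm/fl, with a β-catenin mutant allele beside a floxed one, and D164A/-, ΔC/- and dm/-, in which an adenovirus encoding Cre and GFP had removed the floxed allele before sorting for GFP. The D164A substitution stops β-catenin from binding its co-activators Bcl9 and Bcl9L, and the ΔC and dm alleles are named here as in the labels. The genotypes are those of the sample titles, although the treatment text of the labels speaks of Pygo2 lines. Each line had 8 samples. They came from a 3-day experiment with Wnt3a (100 ng/ml) and a 4-day experiment with TGFβ (2 ng/ml), each with untreated cells of its own, and each of the resulting 28 conditions had 2 biological replicates. Whether 2 replicates of a line were separate cultures or separately derived lines is not given by the labels, so p-values measure only the spread between these samples, and a β-catenin genotype and the line that carries it cannot be told apart. Ctnnb1 itself was at 531 to 3188 CPM over the samples, a level that shows neither the point mutation nor the removal of an allele.

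The extracellular matrix is the network of secreted proteins that surrounds cells. Fibronectin is the glycoprotein that cells assemble into fibrils through integrin receptors, and its increase is a classical sign of an epithelial-mesenchymal transition. Matricellular proteins are secreted into the same network but act on cells, proteases and growth factors more than they bear load. Periostin and the TGFβ-induced protein share fasciclin domains and bind integrins and collagen. Fibulins tie elastic fibers and basement membranes together, tenascin C is laid down around tumors and in wounds, thrombospondins can activate latent TGFβ and restrain vessel growth, and Sparc binds collagen. In mammary tumors many of these proteins come from stromal fibroblasts, and tumor cells can make them too.

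The sequences upstream of Postn and Fbln5 are shown because the levels of these 2 genes, described below, differed by orders of magnitude between lines, Fbln5 having been added after its values were seen. Each run is the 250 bases before an annotated transcription start, 5′ to 3′ on the strand of the gene, from RefSeq on GRCm38.p6, and capitals mark a motif. Postn has starts at 2 places, with windows at chr3:54359017-54359266 and chr3:54360857-54361106 on the plus strand, and the window of the first Fbln5 start lies at chr12:101819120-101819369 on the minus strand.
Postn start 1: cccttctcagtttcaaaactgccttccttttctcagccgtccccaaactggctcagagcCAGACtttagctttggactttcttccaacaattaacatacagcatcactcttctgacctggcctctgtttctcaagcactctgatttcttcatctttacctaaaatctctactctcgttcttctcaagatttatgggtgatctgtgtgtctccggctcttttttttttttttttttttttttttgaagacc
Postn start 2: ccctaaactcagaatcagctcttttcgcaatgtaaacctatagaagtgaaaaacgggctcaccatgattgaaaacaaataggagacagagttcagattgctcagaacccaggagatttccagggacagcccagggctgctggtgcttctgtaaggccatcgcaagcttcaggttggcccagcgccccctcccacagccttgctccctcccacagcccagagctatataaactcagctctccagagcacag
Fbln5 start 1: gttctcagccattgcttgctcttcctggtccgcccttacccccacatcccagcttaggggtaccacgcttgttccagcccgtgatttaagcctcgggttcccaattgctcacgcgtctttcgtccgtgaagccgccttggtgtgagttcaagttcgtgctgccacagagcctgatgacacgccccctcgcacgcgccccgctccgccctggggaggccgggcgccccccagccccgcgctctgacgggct
The motifs searched on both strands were GTCTAGAC and CAGAC (SMAD), TGACTCA and its reverse TGAGTCA (AP-1), CATTCC (TEAD) and CTTTGAT (TCF/LEF). CAGAC, which 42.2% of the 32851 promoter windows hold, occurred 191 bases before the first Postn start, and the other motifs, held by 0.167% (GTCTAGAC), 4.46% (AP-1), 12.6% (CATTCC) and 3.21% (CTTTGAT) of the windows, did not occur in these 3 runs. A match is a description of letters and not of binding. A second Fbln5 start, with CAGAC 199 and 15 bases before it, is not shown because its window reaches 1 base into an annotated exon, and the window of Fbln2 lies wholly within one.

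Between 22.4 and 33.7 M reads were assigned to genes in each sample (median 26.8 M), so that 3 reads, taken as the smallest detectable amount, corresponded to 0.0917 to 0.146 CPM, a limit that covers counting error only. Levels are counts per M of the deposited effective library size (CPM), and fold changes are differences of mean log2(CPM + 1), a scale on which changes of genes at about 1 CPM or less come out too small. A gene is called when limma with Benjamini-Hochberg adjustment over all 13754 genes gave an adjusted p no higher than 0.05 and the log2 fold change reached 1 in either direction. The epithelial label of the lines was checked on 8 markers, with a summed level of 1463 to 9964 CPM. Of these, Cdh1, Epcam, Krt8, Krt18, Krt14 and Cldn4 were at 1 CPM or more in all 56 samples. Krt5 reached 1 CPM in only 27 samples (median 0.901 CPM) and Krt19 in only 8 (median 0 CPM). The sum of 9 fibroblast markers lay between 5.58 and 779 CPM, with Lum, Thy1 and Fap below 1 CPM in every sample, and Pdgfra at 2.71 to 302 CPM. Pdgfrb, Col3a1 and Col1a1 reached 494, 184 and 70.9 CPM at most. These RNA levels are from whole cultures, in which fewer cells of a type and less RNA per cell cannot be told apart.

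The members covered a wide range of abundance. Per kb of transcript, Thbs1 and Fn1 were highest, with median levels over the 56 samples of 306 and 291 CPM per kb, ahead of Sparc at 70.6, Tnc at 41.0 and Fbln2 at 27.4 CPM per kb. Postn, Fbln5 and Tgfbi had medians of 0.439, 0.264 and 0.247 CPM per kb, and Fbln1 and Thbs2 medians of 0.0119 and 0.00561 CPM per kb. The spread over samples was of another order. Thbs1 stayed within 262 to 10662 CPM, whereas Fbln2 ranged from 0.0762 to 2242 CPM, Postn from 0 to 766 CPM and Fbln5 from 0 to 1778 CPM (medians 174, 3.82 and 1.83 CPM).

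The question of which members respond to TGFβ, a cytokine that induces matrix genes, was asked in each line separately. Tnc was called in all 7 lines, Fn1 in 6, and Sparc and Thbs1 in 3 and 4, with Thbs1 moving in opposite directions between lines. Over 8 members and 7 lines, 25 of 56 tests were called, 21 higher and 4 lower with TGFβ, and 31 had an unadjusted p under 0.05. Of all genes tested, 6.25% were called in fl/fl, 3.38% in D164A/fl, 4.06% in D164A/-, 7.74% in ΔC/fl, 6.55% in ΔC/-, 10.3% in dm/fl and 6.12% in dm/- cells. Tnc and Sparc, like Fbln2 and Postn, are on a list of genes that the study chose on these samples, so their directions are not independent evidence. The median log2 fold change of the 8 members was 0.79 in fl/fl, 1.49 in D164A/fl, 1.21 in D164A/-, 0.93 in ΔC/fl, 0.66 in ΔC/-, -0.39 in dm/fl and 1.23 in dm/- cells, where the median over all genes tested lay between -0.03 and 0.03.

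**Figure D1:**
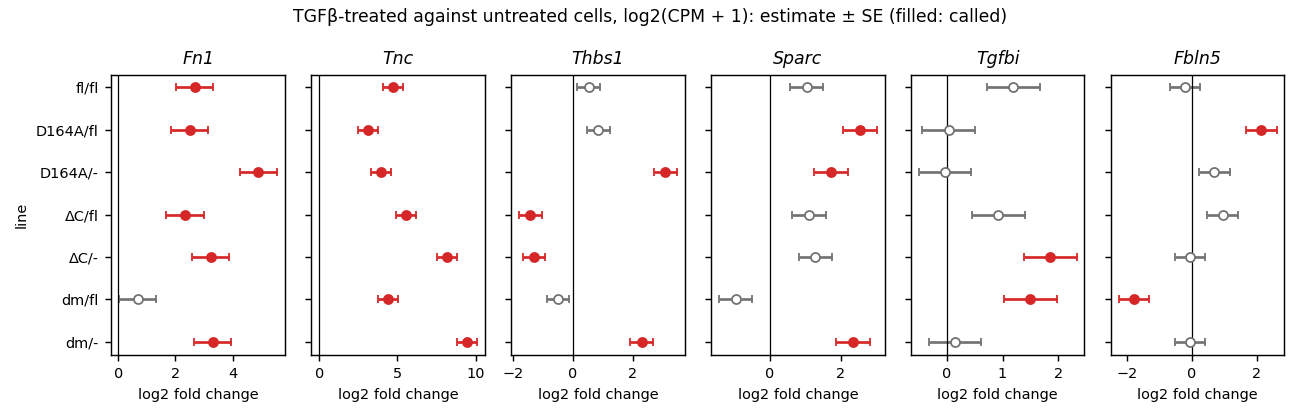
Change with TGFβ of Fn1, Tnc, Thbs1, Sparc, Tgfbi and Fbln5 in each of the 7 lines, as log2 fold change of CPM + 1 (x axis, treated minus untreated, n = 2 in each condition), with bars for the standard error and filled points for called changes. Tnc rose in every line, by 3.123 to 9.43 on the log2 scale, and Thbs1 rose in D164A/- and dm/- and fell in ΔC/fl and ΔC/- cells.

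Fn1 (chr1:71585473-71653280 on GRCm38), which encodes fibronectin, was already one of the abundant transcripts without TGFβ and rose further. In fl/fl cells it was at 7843 and 3607 CPM without TGFβ and at 38578 and 29652 CPM with it, a log2 fold change of 2.67 ± 0.65 (SE, n = 2 against 2, limma, adjusted p = 0.00548). D164A/fl cells went from 5409 and 5253 CPM to 32585 and 27751 CPM (log2 fold change 2.50, limma, adjusted p = 0.0177). D164A/- cells started far lower, at 80.4 and 259.8 CPM, and reached 2535 and 7494 CPM, a log2 fold change of 4.90 (limma, adjusted p = 1.98e-06). Treated D164A/- samples thus overlapped the untreated samples of other lines, although the groups within the line were 29.5-fold apart. In ΔC/fl cells 12203 and 5358 CPM became 56772 and 29337 CPM (log2 fold change 2.34, limma, adjusted p = 0.015), and in ΔC/- cells 5552 and 5895 CPM became 45141 and 63936 CPM (3.23, adjusted p = 0.000868). Values in dm/- cells were 1341 and 1074 CPM untreated and 13439.8 and 10432 CPM treated, a log2 fold change of 3.30 (limma, adjusted p = 0.000685). The exception was dm/fl, with 3649 and 2453 CPM untreated and 7201 and 3196 CPM treated, where the replicates overlapped and the change of 0.68 was not called (limma, adjusted p = 0.717). The Fn1 call was lost without treated replicate 1 or untreated replicate 2 of fl/fl or of ΔC/fl, and without any 1 of the 4 samples of D164A/fl, with an adjusted p of limma of at most 0.271 and a log2 fold change of at least 1.74 in these fits.

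Tnc (chr4:63959785-64047015), the tenascin C gene, showed the largest rises. In dm/- cells it went from 7 and 6.26 CPM to 4544 and 6075 CPM, an 801-fold difference of means (log2 fold change 9.43 ± 0.63, limma, adjusted p = 7.33e-13). In ΔC/- cells it went from 6.48 and 9.44 CPM to 2439 and 2572 CPM (log2 fold change 8.15, limma, adjusted p = 4.61e-11). Both lines started near the lowest Tnc levels of the series and ended within the range of the other treated lines. In ΔC/fl cells 64.6 and 55.7 CPM became 4175 and 2001 CPM (5.57, adjusted p = 1.20e-07 in limma), and in dm/fl cells 117 and 53.1 CPM became 2948 and 928 CPM (4.37, adjusted p = 3.89e-06). The fl/fl cells started at 667 and 837 CPM and reached 19931 and 19103 CPM, the highest Tnc values measured, a log2 fold change of 4.71 (limma, adjusted p = 2.06e-06). D164A/fl cells went from 595 and 493 CPM to 4362 and 5120.5 CPM (3.123, adjusted p = 0.00179), and D164A/- cells from 175 and 259 CPM to 2599.7 and 4153 CPM (3.94, adjusted p = 5.24e-05). Other markers moved in some of these lines. In fl/fl cells the fibroblast marker sum went from 11.2 and 5.58 CPM to 30.4 and 32.9 CPM and the leukocyte marker sum from 59.3 and 75.4 CPM to 166 and 217 CPM. In ΔC/- cells the fibroblast sum went from 9.98 and 9.50 CPM to 26.3 and 25.8 CPM and the epithelial sum from 2919.5 and 3222 CPM to 5606 and 9964 CPM, and the part of these markers in the results of the 2 lines was not tested. No treated sample overlapped an untreated Tnc sample of its line, and none of the 7 calls was lost when any 1 sample was left out.

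Thbs1 (chr2:118111876-118127133), which encodes thrombospondin 1, moved both ways. It rose in D164A/- cells from 262 and 501 CPM to 2559 and 3795 CPM, a log2 fold change of 3.1 ± 0.38 (limma, adjusted p = 4.93e-07), and in dm/- cells from 2150.2 and 1471 CPM to 10662 and 7226 CPM (2.30, adjusted p = 6.61e-05). It fell in ΔC/fl cells from 9126 and 5650.2 CPM to 3223 and 2227 CPM, by 1.42 on the log2 scale (limma, adjusted p = 0.0109), and in ΔC/- cells from 5382 and 5014 CPM to 2565 and 1743 CPM, by 1.30 (limma, adjusted p = 0.0251). The 2 dm/- samples with TGFβ held the top and the third of all Thbs1 values, and the untreated ΔC/fl samples the second and the fourth. In the other 3 lines the change was not called, with values such as 1133 and 1627 CPM untreated and 1736 and 2224 CPM treated in fl/fl cells. The decreases were less stable than the increases. That in ΔC/fl was lost without untreated replicate 1 or treated replicate 2, and that in ΔC/- without either untreated replicate or treated replicate 2, with log2 decreases of at least 1.02 and an adjusted p of limma of up to 0.301.

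Sparc (chr11:55394159-55420080), the collagen-binding glycoprotein also called osteonectin, was called in the D164A lines and in dm/-. D164A/fl cells held 28.5 and 50.2 CPM without and 181 and 283 CPM with TGFβ, a log2 fold change of 2.55 ± 0.47 (limma, adjusted p = 0.000529). D164A/- cells held 3.67 and 4.95 CPM without and 16.4 and 16.6 CPM with TGFβ (1.73, adjusted p = 0.0208 in limma), and this call was lost whenever 1 of its 4 samples was left out (adjusted p up to 0.258). In dm/- cells 93.8 and 109.6 CPM became 537 and 505 CPM (2.35, adjusted p = 0.000821). Beside the rise in dm/- cells, the summed level of the 9 fibroblast markers went from 7.06 and 8.06 CPM to 37.5 and 127 CPM, and its part in the result was not tested. The fl/fl samples (33.6 and 39.7 CPM against 78.4 and 74.9 CPM) and the ΔC samples also did not overlap by treatment, with log2 fold changes of 1.05, 1.11 (ΔC/fl) and 1.29 (ΔC/-) that were not called (limma, adjusted p = 0.256, 0.160 and 0.0855). In dm/fl cells Sparc was lower with TGFβ, at 445 and 409 CPM against 1016 and 678 CPM, and was not called.

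The low members were called in few lines. Tgfbi (chr13:56609586-56639359), named for its induction by TGFβ, went from 0.311 and 0.692 CPM to 4.82 and 3.99 CPM in ΔC/- cells, a log2 fold change of 1.86 (limma, adjusted p = 0.00818), and from 2.24 and 1.88 CPM to 5.7 and 10.1 CPM in dm/fl cells (1.5, adjusted p = 0.0275). The first call was lost without replicate 1 of either condition, the second without treated replicate 2 or either untreated replicate and with edgeR or DESeq2, the adjusted p of limma reaching 0.116 and 0.337. In D164A/- cells with TGFβ Tgfbi was at 0 in both samples, and in dm/- cells it was at 0 in 7 of 8 samples. Fbln5 (chr12:101746565-101819119), a fibulin needed for elastic fibers, rose in D164A/fl cells from 39 and 59.5 CPM to 172 and 269 CPM (2.13 ± 0.47, limma, adjusted p = 0.00383) and fell in dm/fl cells from 4.38 and 1.56 CPM to 0.0935 and 0.0657 CPM, by 1.78 (limma, adjusted p = 0.00705). The dm/fl values with TGFβ were 3 and 2 reads, so the size of this change depends on the added 1 CPM. The 2 Fbln5 calls were each lost without untreated replicate 1 or treated replicate 2 of the line (limma, adjusted p up to 0.244), and that of D164A/fl also with edgeR. Fbln1 (chr15:85205949-85286294), a fibulin of basement membranes, fell in dm/fl cells from 1.46 and 2.9 CPM to 0.53 and 0.493 CPM, by 1.04 (limma, adjusted p = 0.00537), a call that was absent with edgeR, with DESeq2, after removal of the trend with GC content and without untreated replicate 2 (0.70). Thbs2 (chr17:14665500-14694262), the second thrombospondin, was at 0 in 24 samples, reached 1.52 CPM at most and was not called with TGFβ in any line.

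Fbln2 and Postn, the members that led to the choice of the list, went separate ways with TGFβ. Fbln2 (chr6:91212460-91272540) encodes fibulin 2, a binder of fibronectin and basement membrane proteins. With TGFβ it was at 2163 and 2242 CPM in dm/-, 1440.1 and 1945 CPM in dm/fl, and 1179 and 1226 CPM in fl/fl cells. It was at 449 and 830.2 CPM in ΔC/-, 109.7 and 105 CPM in ΔC/fl, 6.87 and 6.37 CPM in D164A/fl, and 0.749 and 1.06 CPM in D164A/- cells. From the highest to the lowest line the means ran 2202 ± 55.7, 1693 ± 357, 1203 ± 33.3, 639.7 ± 269, 107 ± 3.24, 6.62 ± 0.351 and 0.906 ± 0.222 CPM (SD, n = 2), and no neighbours in this order had overlapping replicates. Without TGFβ the same lines held 758 and 587 CPM (dm/-), 432 and 591 CPM (dm/fl), 457 and 390.3 CPM (fl/fl), 177 and 172 CPM (ΔC/-), 45.3 and 69.7 CPM (ΔC/fl), 0.389 and 0.643 CPM (D164A/fl), and 0.0772 and 0.0762 CPM (D164A/-). Every treated sample lay above both untreated samples of its line, with log2 differences of 1.51 in fl/fl, 2.33 in D164A/fl, 0.82 in D164A/-, 0.92 in ΔC/fl, 1.80 in ΔC/-, 1.72 in dm/fl and 1.72 in dm/- cells. These separations describe TGFβ values on which Fbln2 was chosen, and the share of all genes separated in this way was not computed.

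Postn (chr3:54359267-54391041), the periostin gene, followed another order, with fl/fl at the bottom. With TGFβ it was at 492 and 210.0 CPM in D164A/-, 329 and 165 CPM in ΔC/fl, and 232 and 209 CPM in D164A/fl cells. It was at 65.7 and 16.3 CPM in dm/-, 28.6 and 11.5 CPM in dm/fl, 6.06 and 1.46 CPM in ΔC/-, and 0.399 and 0.441 CPM in fl/fl cells. The means were 351 ± 199, 247 ± 116, 221 ± 16.2, 41.0 ± 34.9, 20.02 ± 12.1, 3.76 ± 3.25 and 0.420 ± 0.0298 CPM (SD, n = 2), and the first 3 lines overlapped one another, as did dm/- and dm/fl. Without TGFβ Postn was at 10.2 and 12.5 CPM in D164A/-, 7.57 and 18.6 CPM in D164A/fl and 14.7 and 8.27 CPM in dm/- cells, below the treated samples by log2 differences of 4.71, 4.10 and 1.49. In dm/fl cells it was instead higher without TGFβ, at 309 and 129 CPM, a log2 difference of -3.39. In ΔC/fl cells the untreated replicates stood at 766 and 57.5 CPM and in fl/fl cells at 12.7 and 0.262 CPM, so the treated samples of each of these lines fell between its 2 untreated replicates. In ΔC/- cells 3.96 and 2.58 CPM without TGFβ overlapped the treated values. Fibroblast markers summed to 554 and 332 CPM in untreated and 142 and 105 CPM in treated dm/fl cells, and to 779 and 321 CPM in untreated and 507 and 421 CPM in treated ΔC/fl cells. Untreated ΔC/fl replicate 1, the sample with the highest Postn level, also had the highest marker sum, and the part of these markers in the Postn and Fbln1 values was not tested.

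**Figure D2:**
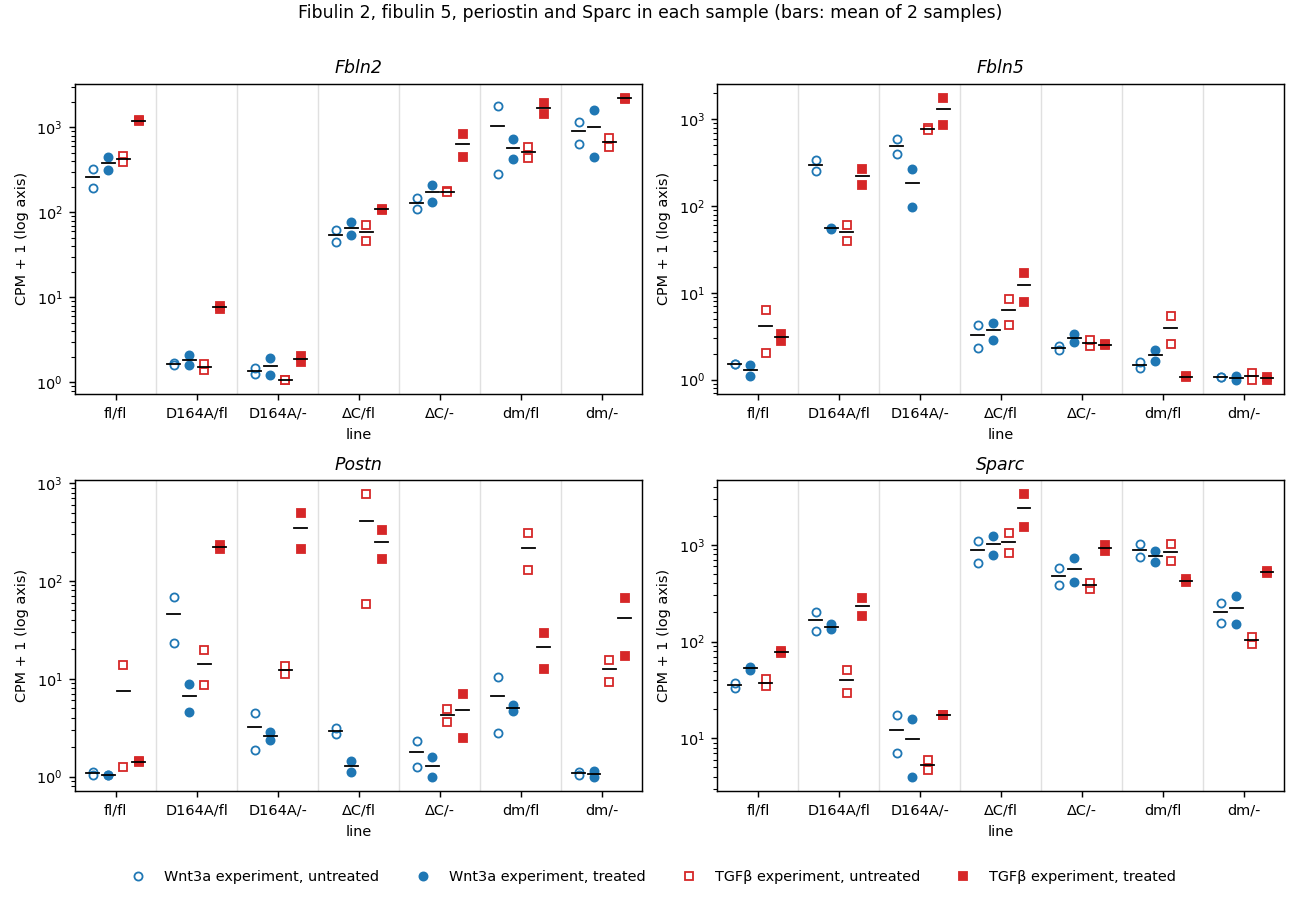
Levels of Fbln2, Fbln5, Postn and Sparc in all 56 samples on a log axis (CPM + 1, a point for each replicate), by line, treatment and experiment. Fbln2 was at 0.0762 to 6.87 CPM and Fbln5 at 39 to 1778 CPM in the D164A lines, whereas Fbln5 was at 15.8 CPM or less in the other lines.

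Whether a deleted line responded to TGFβ otherwise than its floxed line, or than fl/fl cells, was tested as a difference of responses for the 8 members other than Fbln2 and Postn. Of 48 tests 7 were called and 16 had an unadjusted p under 0.05, and all 7 were larger responses of the deleted line. With the replicate number as a block, 15 were called. The percentages of all genes called were 1.35% for D164A/- minus D164A/fl, 4.28% for D164A/- minus fl/fl, 3.13% for ΔC/- minus ΔC/fl, 2.01% for ΔC/- minus fl/fl, 7.31% for dm/- minus dm/fl and 2.78% for dm/- minus fl/fl. The comparisons with fl/fl share its samples. Thbs1 responded more in D164A/- cells, by 2.25 ± 0.54 against D164A/fl (limma, adjusted p = 0.0189) and by 2.57 against fl/fl (limma, adjusted p = 0.00211). In dm/- against dm/fl cells, Tnc responded more by 5.06 (limma, adjusted p = 0.000184), Sparc by 3.31 ± 0.66 (adjusted p = 0.000823) and Thbs1 by 2.80 (adjusted p = 0.000493). Tnc also exceeded its fl/fl response in dm/- cells by 4.72 (limma, adjusted p = 0.00104) and in ΔC/- cells by 3.44 ± 0.90 (limma, adjusted p = 0.0302). These larger Tnc responses started from 6.26 to 9.44 CPM, and the treated levels in both lines remained below those of fl/fl. Because Tnc and Sparc are on the list of genes that the study chose on these samples, their differences are not independent evidence. The Thbs1 difference from D164A/fl and the Tnc difference of ΔC/- from fl/fl were lost with edgeR, the former also without any 1 of 4 of the 8 samples compared (limma, adjusted p up to 0.26) and the latter without any 1 of the 8 (up to 0.154).

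**Figure D3:**
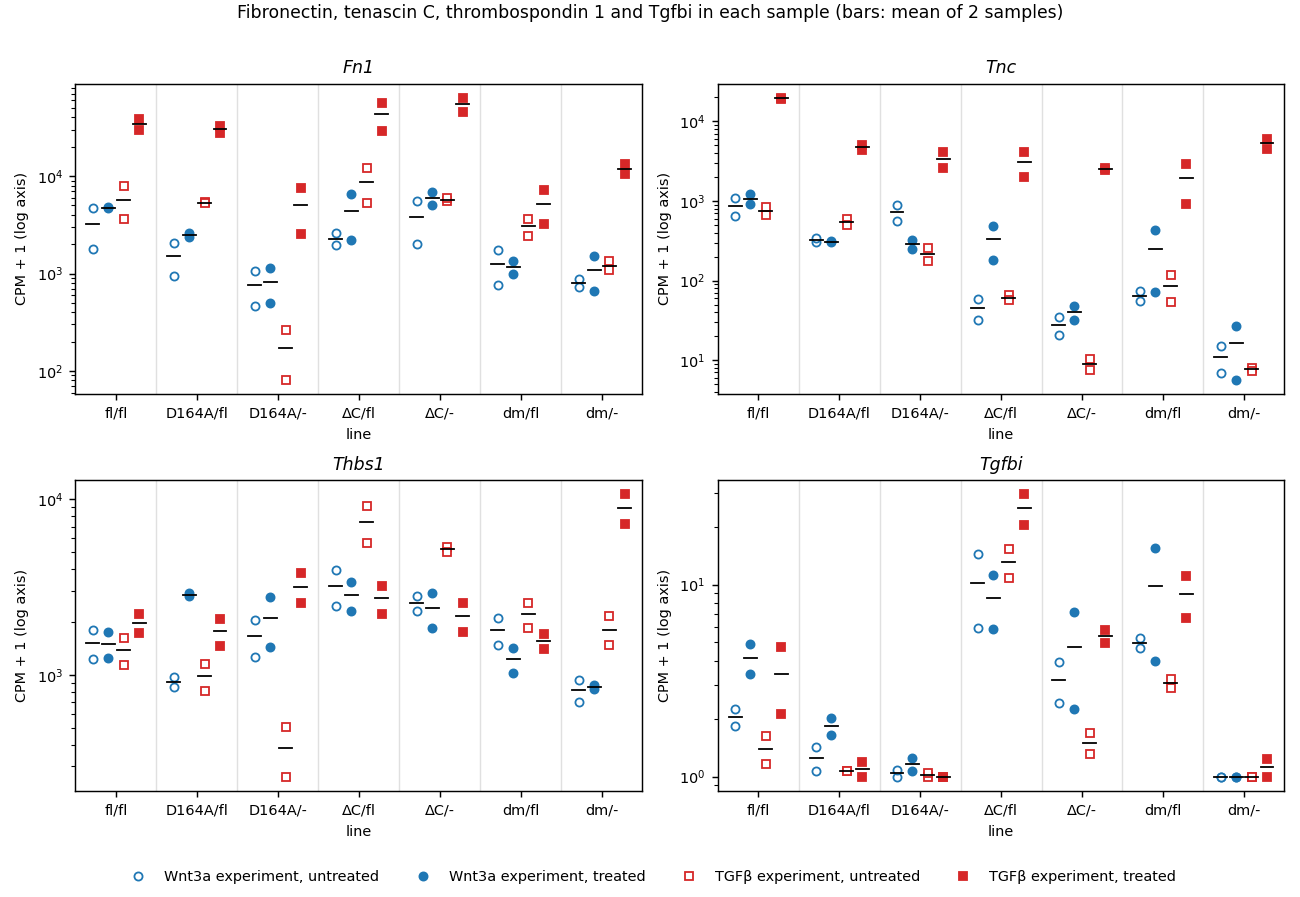
Levels of Fn1, Tnc, Thbs1 and Tgfbi in all 56 samples on a log axis (CPM + 1, a point for each replicate), by line, treatment and experiment. Tnc without cytokine spanned 5.94 to 1094 CPM between lines in the Wnt3a experiment, and with TGFβ 928 to 19931 CPM.

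The lines differed in their matrix genes before any cytokine was added, and because each experiment had untreated cells of its own, each difference from fl/fl could be read from 2 sets of samples. Calls were made in 26 of 60 tests with the Wnt3a samples and in 25 of 60 with the TGFβ samples, with 20 pairs of a gene and a line called in both, 11 in 1 and 29 in neither. The same lines were compared in both experiments. These counts include Fbln2 and Postn, which were chosen for differing between the same lines with TGFβ. They also include Fbln1, which passed the filter through dm/fl and D164A/fl cells alone. The calls and pairs of these genes are not independent evidence of a difference between lines. A share of all genes called in both was not computed, so the pair counts have no background to be set against. The percentages of all genes called against fl/fl were 19.7% in D164A/fl, 17.1% in D164A/-, 13.8% in ΔC/fl, 15.4% in ΔC/-, 32.7% in dm/fl and 18.3% in dm/- cells in the Wnt3a experiment. In the TGFβ experiment they were 14.7%, 19.4%, 16%, 22%, 16% and 14% in the same order. Fold changes against fl/fl had a Spearman rho with GC content of 0.356 to 0.737 in the Wnt3a experiment and -0.421 to 0.103 in the TGFβ experiment. All comparisons in an experiment share its fl/fl samples.

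Fbln2 and Fbln5, but not Fbln1, separated the D164A lines from the rest. Untreated Fbln2 was at 326 and 195 CPM in fl/fl, 0.675 and 0.613 CPM in D164A/fl and 0.255 and 0.464 CPM in D164A/- cells of the Wnt3a experiment. These are log2 fold changes of -7.27 ± 0.52 for D164A/fl (limma, adjusted p = 4.43e-13) and -7.55 for D164A/- (limma, adjusted p = 1.73e-13), and the TGFβ experiment gave -8.13 and -8.62. Fbln2 was chosen for differing between these lines with TGFβ, so its p-values against fl/fl, here and below, are not independent evidence. Fbln5 went the other way, with 0.505 and 0.537 CPM in fl/fl, 252 and 337 CPM in D164A/fl and 586 and 402 CPM in D164A/- cells. Its log2 fold changes in the Wnt3a and TGFβ experiments were 7.59 and 3.78 for D164A/fl and 8.32 and 7.75 for D164A/- cells, all 4 called. Between the 2 experiments untreated Fbln5 of D164A/fl cells differed, at 252 and 337 CPM in the first and 39 and 59.5 CPM in the second. Per kb, Fbln5 exceeded Fbln2 in 16 of 16 samples of the D164A lines and Fbln2 exceeded Fbln5 in 40 of 40 samples of the others. The samples are repeats of the same lines and not replicates of a genotype, and Fbln2 was chosen for differing between lines. Over the 28 condition means, which share lines, the log2 levels of the 2 genes had a Pearson r of -0.93, a description that carries no test.

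Fbln2 was also lower than in fl/fl in ΔC/fl cells, with 60.6 and 44.5 CPM in the Wnt3a experiment (log2 fold change -2.26, limma, adjusted p = 0.00169) and -2.89 in the TGFβ experiment, the first call being lost without fl/fl replicate 1 (limma, adjusted p = 0.0531). In the dm lines it was called higher in the Wnt3a experiment alone, with 1800.2 and 278 CPM in dm/fl (1.48, limma, adjusted p = 0.0232) and 645 and 1149 CPM in dm/- cells (1.77, limma, adjusted p = 0.0123). The corresponding values in the TGFβ experiment were 0.26 and 0.66, and both dm calls were lost when the trend with GC content was removed or when fl/fl replicate 2 was left out. Without dm/fl replicate 1 the first was 0.14, and without dm/- replicate 2 the second was lost as well.

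Tnc was lower in all lines with a ΔC or dm allele. In the Wnt3a experiment it was at 1094 and 643 CPM in fl/fl, 57.9 and 31 CPM in ΔC/fl, 33.5 and 19.4 CPM in ΔC/-, 71.9 and 54.3 CPM in dm/fl, and 5.94 and 14 CPM in dm/- cells. The log2 fold changes were -4.27, -4.98, -3.72 and -6.36 in that order, and -3.62, -6.40, -3.23 and -6.62 in the TGFβ experiment, all called (limma, adjusted p from 6.64e-10 to 0.000203). In D164A/- cells a lower level was called in the TGFβ experiment alone (-1.80, limma, adjusted p = 0.0348, against -0.26 in the Wnt3a experiment), a call lost without any 1 of its 4 samples (adjusted p up to 0.234).

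Sparc had the reverse pattern in the same lines. It was at 32.4 and 36 CPM in fl/fl, 649 and 1106 CPM in ΔC/fl, 387 and 573 CPM in ΔC/-, 1023 and 748 CPM in dm/fl, and 153 and 251 CPM in dm/- cells of the Wnt3a experiment. The log2 fold changes were 4.59 ± 0.47, 3.75, 4.64 and 2.49, and 4.80, 3.34, 4.47 and 1.45 in the TGFβ experiment, all called (limma, the highest adjusted p being 0.026, for dm/- in the TGFβ experiment, a call lost without any 1 of its 4 samples, at up to 0.148). In D164A/- cells Sparc was lower than in fl/fl, with 6.02 and 16.4 CPM (-1.67, limma, adjusted p = 0.00802) in the Wnt3a and 3.67 and 4.95 CPM (-2.83, limma, adjusted p = 1.30e-05) in the TGFβ experiment. The first of these was lost without D164A/- replicate 1 or fl/fl replicate 2 (limma, adjusted p up to 0.213). Sparc in D164A/fl cells was called higher in the Wnt3a experiment alone, at 129 and 201 CPM (2.20), with 28.5 and 50.2 CPM in the TGFβ experiment (0.05). In these untreated cells the fibroblast markers summed to 110 to 453 CPM (ΔC/fl) and 165 to 299.6 CPM (dm/fl) in the Wnt3a experiment and to 321 to 779 CPM and 332 to 554 CPM in the TGFβ experiment. In ΔC/- and dm/- cells, where Sparc was also called higher, the marker sums in untreated cells of both experiments were 8.29 to 9.98 CPM and 6.60 to 11.0 CPM, within the 5.58 to 17.3 CPM of untreated fl/fl. Sparc was lower in dm/- than in dm/fl cells (-2.15 and -3.02 in the Wnt3a and TGFβ experiments). In ΔC/- against ΔC/fl cells it differed by -0.85 (not called) and -1.46 in the same order. The part of these markers in the Sparc values was not tested.

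**Figure D4:**
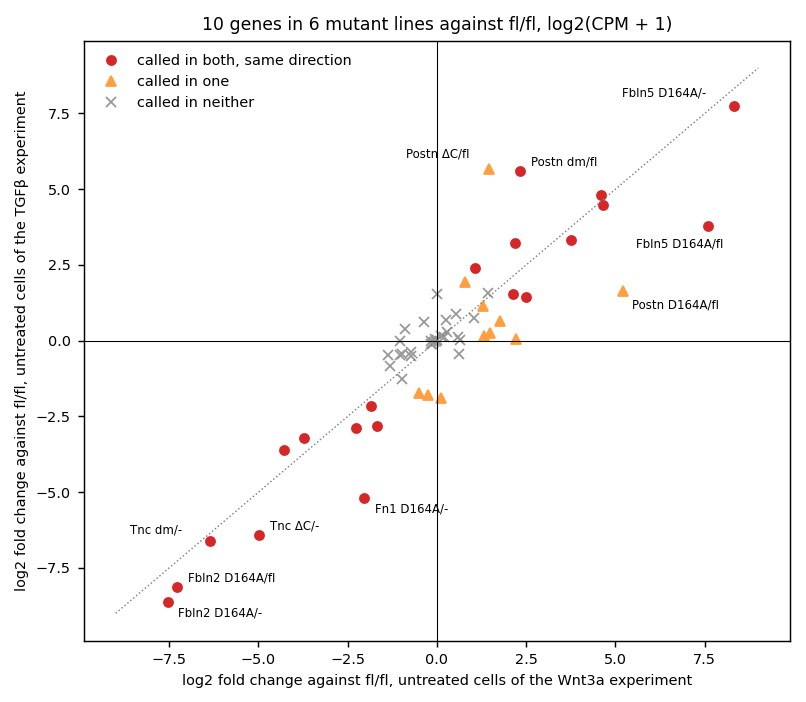
Differences of untreated lines from fl/fl in the 2 experiments for the 10 members, as log2 fold change of CPM + 1 (line minus fl/fl, Wnt3a experiment on the x axis and TGFβ experiment on the y axis). Fbln2 in the D164A lines lies near -7.27 to -8.62 on both axes, and Fbln5 of D164A/fl (7.59 and 3.78) and Postn of ΔC/fl (1.45 and 5.67) lie off the diagonal.

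Fn1 was lower than in fl/fl in the D164A/- and dm/- lines, in which the floxed allele was removed. It was at 4687 and 1786 CPM in untreated fl/fl cells of the Wnt3a experiment, at 466 and 1049.8 CPM in D164A/- (-2.05 ± 0.65, limma, adjusted p = 0.0197) and at 886 and 721 CPM in dm/- cells (-1.85, limma, adjusted p = 0.0357). The differences in the TGFβ experiment were -5.19 (limma, adjusted p = 9.03e-08) and -2.15 (limma, adjusted p = 0.0163). The D164A/- difference thus had the same sign at unequal sizes, and its first call was lost without fl/fl replicate 1 or D164A/- replicate 1 (limma, adjusted p up to 0.291). Both dm/- calls were lost without fl/fl replicate 1 or either dm/- replicate (limma, adjusted p up to 0.321). Untreated ΔC/- cells, the third line without the floxed allele, held 5613 and 1988 CPM and 5552 and 5895 CPM and were not called.

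Thbs1 was higher in ΔC/fl cells, at 2468 and 3974 CPM against 1233 and 1792 CPM in fl/fl in the Wnt3a experiment (1.07, limma, adjusted p = 0.0455) and at 9126 and 5650.2 CPM against 1133 and 1627 CPM in the TGFβ experiment (2.40, limma, adjusted p = 9.20e-06). The first of these was lost without ΔC/fl replicate 2 or either fl/fl replicate, the smallest log2 fold change being 0.73. Thbs1 was called in the TGFβ experiment alone in ΔC/- cells (1.94) and, lower, in D164A/- cells (-1.90), with 0.78 and 0.12 in the Wnt3a experiment. Tgfbi was higher in ΔC/fl cells in both experiments, with 4.96 and 13.4 CPM and 14.4 and 9.81 CPM against 1.26 and 0.843 CPM and 0.161 and 0.636 CPM in fl/fl (2.18 and 3.23), the first call being lost without ΔC/fl replicate 2 (1.55). In dm/fl cells Tgfbi was called in the Wnt3a experiment alone (1.28, against 1.15), a call absent with edgeR or DESeq2, after removal of the GC trend (Spearman rho 0.737 in this comparison) and without either fl/fl replicate or dm/fl replicate 1 (limma, adjusted p up to 0.224). Fbln1 was called higher in dm/fl cells in both experiments (2.12 and 1.52), at 7.85 and 1.72 CPM and 1.46 and 2.9 CPM, and in D164A/fl cells in the Wnt3a experiment (1.31, against 0.16), where it was lost without D164A/fl replicate 2 (0.93) or after removal of the GC trend. Outside these 2 lines Fbln1 was at 0.192 CPM or less. It passed the filter through these 2 lines alone, so its calls are descriptions and not independent evidence. Fbln5 was called lower in dm/- cells of the TGFβ experiment, at 0.183 and 0 CPM against 5.35 and 1.01 CPM in fl/fl (-1.72, against -0.50), and not without fl/fl replicate 1 or dm/- replicate 2 (0.89 at the smallest size).

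Untreated Postn differed between the experiments within lines. Postn was chosen for differing between these lines with TGFβ, so its calls against fl/fl are not independent evidence. In dm/fl cells it was called higher than in fl/fl in both, with 1.81 and 9.53 CPM against 0.126 and 0.0383 CPM in the Wnt3a experiment (2.33, limma, adjusted p = 0.0366) and 309 and 129 CPM against 12.7 and 0.262 CPM in the TGFβ experiment (5.59, limma, adjusted p = 1.07e-05). In ΔC/fl cells 1.75 and 2.15 CPM in the first experiment (1.45, not called) stood beside 766 and 57.5 CPM in the second (5.67, limma, adjusted p = 9.20e-06). D164A/fl cells had the opposite, with 67.8 and 22 CPM in the first (5.20, limma, adjusted p = 2.93e-05) and 7.57 and 18.6 CPM in the second (1.64, not called). The first call in dm/fl was lost without dm/fl replicate 2 or either fl/fl replicate (limma, adjusted p up to 0.264). The fl/fl replicates of the TGFβ experiment were themselves far apart, and without replicate 2 of fl/fl the difference of D164A/fl changed sign (-0.078).

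Each deleted line was compared with its floxed line, untreated, in each experiment. The deleted lines had also been infected with virus and sorted for GFP. The study describes a control virus without Cre, but the sample titles do not say whether the floxed lines received it. Removal of the allele therefore cannot be told apart from infection, sorting and later growth. Of 60 tests 24 were called, with 6 pairs of a gene and an allele called in both experiments, 12 in 1 and 12 in neither. The percentages of all genes called were 3.21% for D164A, 8.16% for ΔC and 16.5% for dm with the Wnt3a samples, and 16.5%, 12% and 16.1% with the TGFβ samples. All 6 pairs called in both were lower in the deleted line, among them Fbln1 in dm, which passed the filter through dm/fl and D164A/fl cells alone. Neither the share of all genes called in both nor their directions were computed for comparison. Fbln2 and Postn are counted as well, although they were chosen for differing between lines with TGFβ, and their calls are not independent evidence. Sparc was lower in D164A/- than in D164A/fl cells (-3.88 with the Wnt3a and -2.88 with the TGFβ samples) and lower in dm/- than in dm/fl cells (-2.15 and -3.02). In the dm lines Tnc (-2.64 and -3.39), Tgfbi (-2.31 and -1.61) and Fbln1 (-2.29 and -1.54) were lower in both experiments as well, and Tgfbi was lower in ΔC/- than in ΔC/fl cells (-1.59 and -3.11). Of these, Tgfbi in ΔC of the Wnt3a experiment was lost without ΔC/- replicate 1 or ΔC/fl replicate 2 (limma, adjusted p up to 0.477) and with edgeR or DESeq2, Tgfbi in dm of the TGFβ experiment without dm/fl replicate 1 or either dm/- replicate (up to 0.0875), and Tnc in dm of the Wnt3a experiment without dm/- replicate 1 (0.0754).

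Other differences were called in 1 experiment. Fn1 was 80.4 and 259.8 CPM in D164A/- against 5409 and 5253 CPM in D164A/fl cells of the TGFβ experiment (-5.19, limma, adjusted p = 1.83e-07), but 466 and 1049.8 CPM against 2064 and 946 CPM, with overlapping replicates, in the Wnt3a experiment (-0.997, not called). Fbln5 was higher in D164A/- than in D164A/fl cells of the TGFβ experiment (3.96, limma, adjusted p = 6.26e-08), and the Wnt3a experiment gave 0.73. Postn was lower in the deleted line where the floxed line was high, by 5.65 for ΔC and by 4.06 for dm in the TGFβ experiment and by 3.77 for D164A in the Wnt3a experiment, expressed as decreases on the log2 scale. In the other experiment Postn differed by -0.79 (ΔC), -2.34 (dm) and -0.08 (D164A), not called. The remaining calls were Thbs1 in D164A (-1.41, TGFβ experiment) and dm (-1.13, Wnt3a experiment), Fbln1 in D164A (-1.45, Wnt3a experiment), Fbln5 in dm (-1.77, TGFβ experiment), and Fbln2 (1.62), Sparc (-1.46) and Tnc (-2.79) in ΔC of the TGFβ experiment. Except for the calls of Fbln1, of Tnc, of Fn1, of Fbln5 in D164A and of Postn in ΔC and dm, each of the calls made in 1 experiment was lost without any 1 of 2 or 3 single samples, with an adjusted p of limma of up to 0.265. The fibroblast marker sum was lower in the deleted line as well for ΔC and dm, at 9.50 to 9.98 CPM in ΔC/- against 321 to 779 CPM in ΔC/fl and 7.06 to 8.06 CPM in dm/- against 332 to 554 CPM in dm/fl cells of the TGFβ experiment, and its part in the lower values was not tested.

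Wnt3a, the ligand of the canonical pathway in which β-catenin acts, moved few members. Fold changes with Wnt3a followed the GC content of genes in several lines. Spearman rho was 0.813 in fl/fl, 0.00415 in D164A/fl, 0.18 in D164A/-, -0.43 in ΔC/fl, 0.84 in ΔC/-, -0.822 in dm/fl and 0.436 in dm/- cells. Of 70 tests 4 were called and 10 had an unadjusted p under 0.05. Of all genes, 0.378% were called in fl/fl, 4.15% in D164A/fl, 0.654% in D164A/-, 0.225% in ΔC/fl, 0.0509% in ΔC/-, 0.574% in dm/fl and 0% in dm/- cells, where limma and edgeR called 0 genes, DESeq2 called 1, and 29 of 13754 genes had an unadjusted p under 0.05 in limma. In D164A/fl cells Thbs1 rose from 967 and 846 CPM to 2799 and 2932 CPM (log2 fold change 1.66 ± 0.38, limma, adjusted p = 0.00386) and Fbln5 fell from 252 and 337 CPM to 55.2 and 53.6 CPM, by 2.40 ± 0.47 (limma, adjusted p = 0.000568). Both are in the line with the largest number of Wnt3a calls among all genes, and the Fbln5 call was kept under the alternatives and left-out samples tried. The Thbs1 call missed the threshold without untreated or treated replicate 2, at an adjusted p of limma of up to 0.0503. Tnc rose in ΔC/fl cells from 57.9 and 31 CPM to 181 and 489 CPM (2.78 ± 0.63, limma, adjusted p = 0.0461), and Fbln1 fell in dm/fl cells from 7.85 and 1.72 CPM to 1.03 and 1.36 CPM, by 1.17 (limma, adjusted p = 0.0224). The Tnc call was lost with edgeR and without either untreated replicate or treated replicate 2 (2.07 at the smallest), and the Fbln1 call with edgeR and DESeq2, with a pseudocount of 0.1, after removal of the trend with GC content (Spearman rho of fold changes with GC content -0.822 over 9414 genes in this comparison) and without untreated replicate 1 or either treated replicate (0.32 at the smallest size). Fn1, Sparc, Tgfbi, Fbln2, Postn and Thbs2 were not called with Wnt3a in any line.

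Differences of the Wnt3a response between a deleted line and its floxed line or fl/fl were called for 0 of 60 tests with limma, edgeR or DESeq2, and 3 had an unadjusted p under 0.05 in limma. These were Thbs1 in D164A/- minus D164A/fl (-1.35), Tnc in ΔC/- minus ΔC/fl (-2.22) and Fbln1 in dm/- minus dm/fl cells (1.19). Of all genes, 0.974% and 0.24% were called for D164A/- against D164A/fl and fl/fl, 0.00727% and 0.0291% for ΔC/-, and 0.109% and 0.0727% for dm/- cells.

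The other genes of the matrix system were counted from lists of receptors, further matricellular proteins, matrix assembly enzymes and immediate targets. Among 13 tested receptor genes of a list of 15, TGFβ gave 2 higher and 1 lower in fl/fl, 1 and 0 in D164A/fl, 2 and 0 in D164A/-, 2 and 2 in ΔC/fl, 3 and 0 in ΔC/-, 4 and 3 in dm/fl, and 4 and 1 in dm/- cells. Itgb3, a subunit of the integrins that bind fibronectin and periostin, rose in all 7 lines, by 7.03 in fl/fl, 3.79 in D164A/fl, 1.78 in D164A/-, 3.85 in ΔC/fl, 3.19 in ΔC/-, 4.74 in dm/fl and 4.74 in dm/- cells. Itga5, of the main fibronectin receptor, rose by 3.44 in fl/fl, 3.36 in ΔC/- and 2.99 in dm/- cells, and Itga8 fell by 3.71 in ΔC/fl cells. Median log2 fold changes of the receptor list were 0.45, 0.24, 0.38, 0.00, 0.27, 0.16 and 0.86 in the order of the lines above.

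Of 25 other matricellular and related genes 16 were tested, and TGFβ gave 5 higher and 0 lower in fl/fl, 5 and 0 in D164A/fl, 6 and 0 in D164A/-, 5 and 3 in ΔC/fl, 4 and 0 in ΔC/-, 5 and 5 in dm/fl, and 6 and 0 in dm/- cells. Ccn4, a CCN-family protein also known as a Wnt target, rose in all 7 lines, by 3.23 in dm/fl to 7.85 in dm/- cells. Ccn2, connective tissue growth factor, rose by 3.92 in D164A/fl, 4.05 in D164A/- and 2.08 in ΔC/fl cells. Ccn5 fell by 5.72 in dm/fl cells, the line in which Postn and Fbln1 were also lower with TGFβ. Among 18 tested of 20 matrix assembly and cross-linking genes the counts were 5 higher and 1 lower, 5 and 0, 5 and 0, 4 and 1, 3 and 0, 2 and 6, and 4 and 1, in the order fl/fl, D164A/fl, D164A/-, ΔC/fl, ΔC/-, dm/fl and dm/-. The lysyl oxidase family member Loxl2 rose by 3.50 in fl/fl cells, and the fibrillin gene Fbn1 rose by 2.13 in fl/fl and 2.64 in dm/- and fell by 2.60 in dm/fl cells. In dm/fl cells decreases thus outnumbered increases on this list. Medians over the 7 lines ran from 0.16 to 0.79 for the matricellular list and from 0.00 to 0.91 for the assembly list.

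Whether the cytokines acted was read from their immediate targets. All 8 immediate TGFβ targets were tested, and 3, 3, 2, 2, 2, 3 and 4 rose in the order of lines above, with 1 lower in dm/fl and 0 in the others and list medians of 0.63 to 1.14. Of 8 Wnt feedback targets 6 were tested, and with Wnt3a 1, 3, 2, 1, 1, 1 and 0 rose in the same order, with list medians of 0.06 to 1.73. With TGFβ, 1 feedback target rose in ΔC/fl and 1 in ΔC/-, while 1 fell in fl/fl, D164A/-, dm/fl and dm/- and 2 in ΔC/fl cells. The dm/- cells thus had neither a feedback target nor a member called with Wnt3a. An action of Wnt3a on dm/- cells is therefore not shown. The lack of called members and of called response differences that involve this line cannot be interpreted. Epithelial markers called lower with TGFβ numbered 1 in fl/fl (Cdh1, -1.22), 1 in D164A/- (Krt5, -2.48) and 3 in ΔC/fl cells (among them Cdh1, -2.43, and Krt14, -3.47) and 0 in the other lines. Fibroblast markers called with TGFβ were 1 higher in fl/fl, D164A/fl and D164A/-, 2 higher and 1 lower in ΔC/fl, 1 higher and 2 lower in dm/fl, and 2 higher in dm/- cells. Leukocyte markers summed to 1.27 to 533 CPM, with Csf1r at up to 529.7 CPM and Cd68 at 1.10 to 79.4 CPM, while Ptprc reached 0.208 CPM and Adgre1 0.0422 CPM at most. By line, the leukocyte sum was 292 to 533 CPM in dm/fl, 52.9 to 217 CPM in fl/fl and 1.27 to 20.8 CPM in the D164A lines. It was 3.23 to 88.0 CPM in the remaining lines. Endothelial markers summed to 35.1 and 34.1 CPM in TGFβ-treated dm/fl cells and to at most 3.71 CPM in all other samples. The part of these markers in the member values was not tested.

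The genes whose log2 levels over the 28 condition means were most like those of Fbln2 were Cxcl16 (Pearson r 0.950), a chemokine, Ccdc68 (0.942) and Il18r1 (0.936), a subunit of the interleukin 18 receptor. Those most like Postn were Lmcd1 (0.854) and the protocadherins Pcdhb14 (0.852) and Pcdhb20 (0.839), of which the 2 protocadherins reached 8.64 and 7.84 CPM at most. Among the members themselves Thbs2 and Tgfbi had an r of 0.80 and Sparc and Tgfbi of 0.70. These values describe conditions that share lines and untreated samples, and the points are not independent.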

How the data were processed

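RNA-sequencing was analysed for the 56 samples of 7 cell lines, each sample grouped by its label. Following the methods of the study, stranded poly(A) libraries were sequenced, reads were mapped to mm10 with STAR (named in the submitters' processing notes, without a version), unique hits were kept, and reads starting in exons of RefSeq genes were counted with qCount of QuasR. The deposited values are a normalized signal that the authors obtained by dividing counts by an effective library size, here called CPM, and 100% of them were whole reads within 0.001 of a read after division by the smallest step, which recovered the counts. The implied scaling factors lay between 0.81 and 1.14, and the share of reads in the top 10 genes was 3.36% to 9.6%. Of 20314 Entrez identifiers 20261 matched a symbol, and positions are from GRCm38. The study names edgeR without a design. No file was left out.

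Values were transformed to log2(CPM + 1) and fitted with limma 3.58.1 (trend on expression) in R 4.3.3 over all 28 conditions and those 13754 genes that reached 1 CPM in 2 samples or more, a script first tested on simulated data. Benjamini-Hochberg adjustment ran over these genes within each comparison, and a call needed an adjusted p no higher than 0.05 with a log2 change of 1 or more in either direction. Comparisons numbered 44 and covered the responses to each cytokine, untreated lines against fl/fl and deleted against floxed lines in each experiment, and differences of responses. Alternatives were a pseudocount of 0.1, no filter, median-of-ratios and upper-quartile scaling, edgeR 4.0.16 (quasi-likelihood) and DESeq2 1.42.0 on the whole reads, the samples compared alone, the replicate number as a block, removal of a lowess trend (span 0.3) with the GC content of 18342 genes, an unadjusted p of at most 0.05 with a 1.5-fold change, and leaving out each replicate. Tables and figures used Python 3.11.15, pandas 2.3.3, numpy 2.4.6 and matplotlib 3.10.9.

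The members and the lists (receptors, other matricellular proteins, matrix assembly, immediate TGFβ targets, Wnt feedback targets, and epithelial, fibroblast, leukocyte and endothelial markers) were chosen with earlier results of these data known. Every member was named, with values per sample for those called in the comparison described (up to the 3 with the largest change in a line) and for Fbln2 and Postn with TGFβ, with the 3 genes most correlated with each of Fbln2 and Postn. List genes were named where called and among the 2 largest changes of their list in a comparison. Some calls beyond this rule are also given. Not every list gene that the rule selects is reported here. Duplicates of each condition limit the precision, and standard errors pool the spread over all 28 conditions.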

Additional observations from a re-analysis of the deposited data

Results flagged for a closer look

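In 7 tests the response of a member to TGFβ differed between a deleted line and its floxed line or fl/fl, each being the larger response in the deleted line. Thbs1 differed by 2.25 between D164A/- and D164A/fl and by 2.57 between D164A/- and fl/fl on the log2 scale. Tnc differed by 3.44 between ΔC/- and fl/fl, by 5.06 between dm/- and dm/fl and by 4.72 between dm/- and fl/fl cells. Sparc differed by 3.31 and Thbs1 by 2.80 between dm/- and dm/fl cells. The study chose a list of genes on these samples that holds Tnc and Sparc, so their differences are not independent evidence. The Tnc, Sparc and Thbs1 differences with dm/- concern a line whose fibroblast marker sum also rose with TGFβ, from 7.06 and 8.06 CPM to 37.5 and 127 CPM. In dm/fl cells this sum fell with TGFβ, from 554 and 332 CPM to 142 and 105 CPM. The part of these markers in the differences was not tested.

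In 5 further pairs of lines a member moved in opposite directions with TGFβ, every sample of one line rising and every sample of the other falling, and the difference itself was not tested. Thbs1 rose in D164A/- and fell in ΔC/fl and ΔC/- cells, 4.52 and 4.40 apart on the log2 scale. It also rose in dm/- cells, 3.72 from ΔC/fl and 3.60 from ΔC/-. Fbln5 rose in D164A/fl and fell in dm/fl cells, 3.92 apart, with 3 and 2 reads in the treated dm/fl samples. Pairs of replicates are too few for a search for single outlying samples.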

How the results depend on the processing

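Of 111 called results of single genes, none lost its call with upper-quartile scaling or with the replicate block, 1 with median-of-ratios scaling, 5 with a pseudocount of 0.1, 6 without the filter, 6 with the GC trend removed, 5 with DESeq2, 9 with edgeR and 24 when only the samples compared were fitted, which leaves few degrees of freedom. Leaving out 1 replicate removed 40 of the 111 calls in at least 1 fit, among them 11 of 25 TGFβ calls, 3 of 4 Wnt3a calls and 11 of 26 and 4 of 25 calls against fl/fl in the Wnt3a and TGFβ experiments. Upper-quartile scaling moved the median of all genes by 0.107 (log2) and median of ratios by 0.0717. The 4 Wnt3a calls became 2 with a pseudocount of 0.1, 2 with edgeR, 1 with the samples compared alone and 9 with an unadjusted p and 1.5-fold. The 26 calls against fl/fl in the Wnt3a experiment became 17 with the samples compared alone. The 7 differences of TGFβ responses became 13 with those samples alone, 15 with the replicate block, 16 with the block and the GC trend removed and 16 with an unadjusted p and 1.5-fold. The 0 differences of Wnt3a responses became 1 with the replicate block, 1 with the block and the GC trend removed and 3 with an unadjusted p. The totals without 1 replicate were 23 to 25 TGFβ calls, 3 to 5 Wnt3a calls, 20 to 26 and 22 to 26 calls against fl/fl in the Wnt3a and TGFβ experiments, 22 to 26 between deleted and floxed lines, and 6 to 8 and 0 to 2 differences of TGFβ and Wnt3a responses. With TGFβ, the highest line exceeded the lowest by 10.18 for Fbln2 and 7.83 for Postn, and by 11.11 and 9.27 with a pseudocount of 0.1, which compresses low values less. No label ties the replicate numbers to a batch or a pairing. Deviations of same-numbered samples correlated at -0.246 to 0.943 in treatment comparisons (over 0.1 in 12 of 14) and -0.596 to 0.814 in line comparisons (over 0.1 in 10 of 18). Same-numbered treated and untreated samples of a line thus deviated together in most treatment comparisons, which the main fits do not model.

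Without fl/fl replicate 2 of the TGFβ experiment, the difference of untreated Postn from fl/fl, not called, turned negative. Leaving out 1 replicate gave -0.078 to 3.36 in D164A/fl, -0.15 to 3.28 in D164A/- and -0.18 to 3.26 in dm/- cells. The difference of the Tgfbi response of dm/- cells, also not called, was -1.35 from dm/fl and -1.04 from fl/fl but 2.83 and 2.18 with edgeR and 2.38 and 1.72 with DESeq2, with Tgfbi at 0 in 7 of 8 dm/- samples. The 2 replicates per condition and 3 reads at 0.0917 to 0.146 CPM limit what can be seen for Fbln1, Thbs2 and Tgfbi.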
